A study of Mus musculus with 40 samples.

Results

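The 4 mouse genes described here, Grp, Vgf, Sprr2f and Meltf, are among 55862 gene names in the temporal table of a kidney RNA-seq study. They were chosen by gene name for very large rises from near 0 after ischaemia, so their levels in ischaemic kidneys against uninjured kidneys are a description and carry no test. Every library was made from kidney of wild-type C57bl/6 mice, and the labels used here give no age. Ischaemia-reperfusion injury (IRI) is made by clamping the kidney's vessels for a time and letting blood back in. The temporal table held 4 Control libraries and 4 libraries at each of 6, 24, 48 and 72 h of reperfusion. In the therapy table there were 4 libraries each of injured kidneys given human umbilical cord mesenchymal stromal cells (UC-MSC), injured kidneys given human bone marrow mesenchymal stromal cells (BM-MSC), injured kidneys without cells (AKI, labelled as 6 h after reperfusion) and the same Control libraries. The cells were injected right after reperfusion under the same anaesthesia, and the labels used here give no collection time for the kidneys that received them. The sham table held 4 kidneys taken 24 h after surgery without ischaemia, whose treatment field nevertheless reads IRI, and 4 kidneys without surgery. The labels do not say whether replicates were separate animals, so the p-values below rest on the spread among libraries, part of which may be technical.

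Grp (ENSMUSG00000024517) encodes gastrin-releasing peptide, a bombesin-like neuropeptide that acts through the G-protein-coupled receptor Grpr. Vgf (ENSMUSG00000037428) encodes a granin-like precursor that neurons and endocrine cells store in secretory granules and cleave into several peptides. Sprr2f (ENSMUSG00000050635) belongs to the small proline-rich (SPRR) genes of the epidermal differentiation complex, whose proteins are cross-linked into the cornified envelope of barrier epithelia. Meltf (ENSMUSG00000022780) encodes melanotransferrin, a membrane-anchored relative of the iron carrier transferrin. After ischaemia, surviving tubule cells lose transporters, turn on stress-response transcription factors such as Atf3 and the AP-1 family, and express keratins and secreted proteins that the resting tubule lacks.

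Levels are TMM-scaled read counts relative to library size (CPM), a scale that compares libraries for a gene and does not correct for gene length. The 72 h libraries were shallowest, with 4640921 to 5366202 counts each, and the 48 h libraries had 5444724 to 7014133. Those at 24 h had 6696400 to 13517430 counts, the other temporal and therapy libraries 12949029 to 18475869, and the sham libraries 26601247 to 37097091. Some libraries stood apart. Library 1 at 6 h correlated at 0.957 to 0.965 with its own group (Pearson r of log2 CPM over 16653 genes), against up to 0.992 among the others. BM-MSC library 4 was closest to UC-MSC library 1 (r = 0.977), and AKI library 1 correlated at 0.901 to 0.909 with its own group. Libraries at 48 h and 72 h correlated with their own groups at only 0.832 to 0.859 and 0.794 to 0.821. Summed proximal tubule markers (7 genes) reached 10030 to 12640 CPM in Control, so the labelled tissue is present in the data. In whole-kidney RNA, more cells of a type and more RNA per cell cannot be told apart.

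In Control kidneys, the 4 genes were close to the detection limit, and all 4 were far above it at 24 h after reperfusion. Their later courses differed. Grp and Sprr2f were highest at 24 h and lower again at 48 h with no overlap between the groups, while Meltf stayed at its 24 h level to 72 h and Vgf lay between these patterns. Ranked by fitted log2 fold change among 16653 genes tested at 24 h, Grp stood at place 1, Sprr2f at 2, Vgf at 11 and Meltf at 16.

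For Grp, the neuropeptide gene, Control libraries held 1 count in all, at 0, 0, 0 and 0.07 CPM. At 6 h its levels were 8.47, 1.38, 1.09 and 0.91 CPM, and at 24 h they were 23.9, 42.9, 38.2 and 35.5 CPM. At 48 h they were 8.42, 1.84, 0.13 and 0 CPM, and at 72 h no library held a Grp count. The 24 h libraries thus lay above every library of every other time, and at 48 h the libraries ran from below the Control maximum to the level of the highest 6 h library. The group means were 2.97 ± 3.68 CPM at 6 h, 35.1 ± 8.09 CPM at 24 h and 2.60 ± 3.97 CPM at 48 h (SD, n = 4). With 1 Control count, the ratio of pooled levels at 24 h to Control was 2111, with a counting interval from 378.3 to 83440. At 6 h this ratio was 158, with an interval from 27.9 to 6260. These exact 95% intervals cover counting error only. The fitted log2 fold change at 24 h was 10.23 ± 1.45 (SE), and 11.46 without Control library 4, which holds the single count. From 6 h to 24 h the fitted log2 difference was 3.57 ± 0.94, and from 24 h to 48 h it was -3.75 ± 0.96. Without 6 h library 1 the first step was 4.93, and without 48 h library 1 the second was -5.82. A floor of 3 counts over the 72 h libraries equals 0.16 CPM. Against this floor, the pooled Grp level was at least 225-fold higher at 24 h and 16.1-fold higher at 48 h. The 48 h value rests mostly on library 1, with 54 of 65 counts, while library 4 had 0, as at 72 h. The 48 h and 72 h ranges thus overlapped, and 16.1 is no bound for the group. No fold is given for 72 h against Control, since both were under that floor.

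For Vgf, the granin-like precursor, Control libraries had 0.64, 0.28, 0 and 0.35 CPM (19 counts). At 6 h its levels were 99.7, 8.55, 5.04 and 4.28 CPM, and at 24 h they were 32.5, 84.4, 40.6 and 47.4 CPM. At 48 h they were 10.9, 25.4, 12.4 and 56.3 CPM, and at 72 h they were 21.6, 15.7, 19.96 and 19.5 CPM. Every injured library exceeded every Control library, but the ranges of successive times overlapped throughout. The highest Vgf level of the whole temporal series was in library 1 at 6 h, above all 24 h libraries. The group means were 29.4 ± 46.9, 51.2 ± 22.9, 26.2 ± 21.1 and 19.2 ± 2.48 CPM at 6, 24, 48 and 72 h (SD, n = 4), so the spread was smallest at 72 h. The fitted log2 fold change against Control was 6.46 ± 1.01, 7.26 ± 1.03, 6.30 ± 1.02 and 5.85 ± 1.01 at these times. Without library 1 the 6 h value was 4.17, and the step from 6 h to 24 h was 3.09 in place of 0.81 ± 0.72 on the log2 scale.

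For Sprr2f, the barrier protein gene, Control libraries had 1.08, 0.42, 0.14 and 0.98 CPM (39 counts). At 6 h its levels were 125, 28.6, 25.04 and 22.8 CPM, and at 24 h they were 152, 221, 294 and 254 CPM. At 48 h they were 63.3, 7.72, 19.3 and 20.9 CPM, and at 72 h they were 21.0, 7.98, 22.6 and 6.57 CPM. As with Grp, all 24 h libraries were above all libraries of the other times, and the ranges at 48 h and 72 h overlapped. Unlike Grp, no injured library came near the Control range. The group means were 50.4 ± 49.9, 230.3 ± 60.1, 27.8 ± 24.4 and 14.5 ± 8.41 CPM at 6, 24, 48 and 72 h (SD, n = 4). The fitted log2 fold change against Control was 6.22 ± 0.75 at 6 h, 8.42 ± 0.79 at 24 h, 5.38 ± 0.74 at 48 h and 4.44 ± 0.75 at 72 h. Between successive times it moved by 2.20 ± 0.55 up to 24 h, by -3.04 ± 0.58 up to 48 h and by -0.94 ± 0.58 up to 72 h. Without 6 h library 1, the 6 h value was 5.24 and the step to 24 h was 3.17. Without 48 h library 1, the 48 h value was 4.56 and the step from 24 h was -3.85.

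For Meltf, the iron-binding membrane protein gene, Control libraries had 0.13, 0, 0.14 and 0 CPM (4 counts). At 6 h its levels were 14.1, 5.20, 3.504 and 4.28 CPM, and at 24 h they were 8.45, 14.9, 9.54 and 11.3 CPM. At 48 h they were 11.1, 9.55, 17.2 and 13.8 CPM, and at 72 h they were 16.8, 15.95, 15.4 and 4.93 CPM. The ranges of all successive times overlapped, and 3 of the 4 libraries at 72 h were above the highest library at 24 h. The group means were 6.77 ± 4.93, 11.1 ± 2.84, 12.9 ± 3.37 and 13.3 ± 5.59 CPM at 6, 24, 48 and 72 h (SD, n = 4). The fitted log2 fold change against Control was 6.40 ± 0.71, 7.11 ± 0.72, 7.34 ± 0.72 and 7.38 ± 0.72 at these times. Successive steps were 0.71 ± 0.49, 0.23 ± 0.49 and 0.04 ± 0.49, with the last pair close to 0. At 72 h Meltf ranked at place 141 by fold change, against 340 for Vgf and 654 for Sprr2f.

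**Figure D1:**
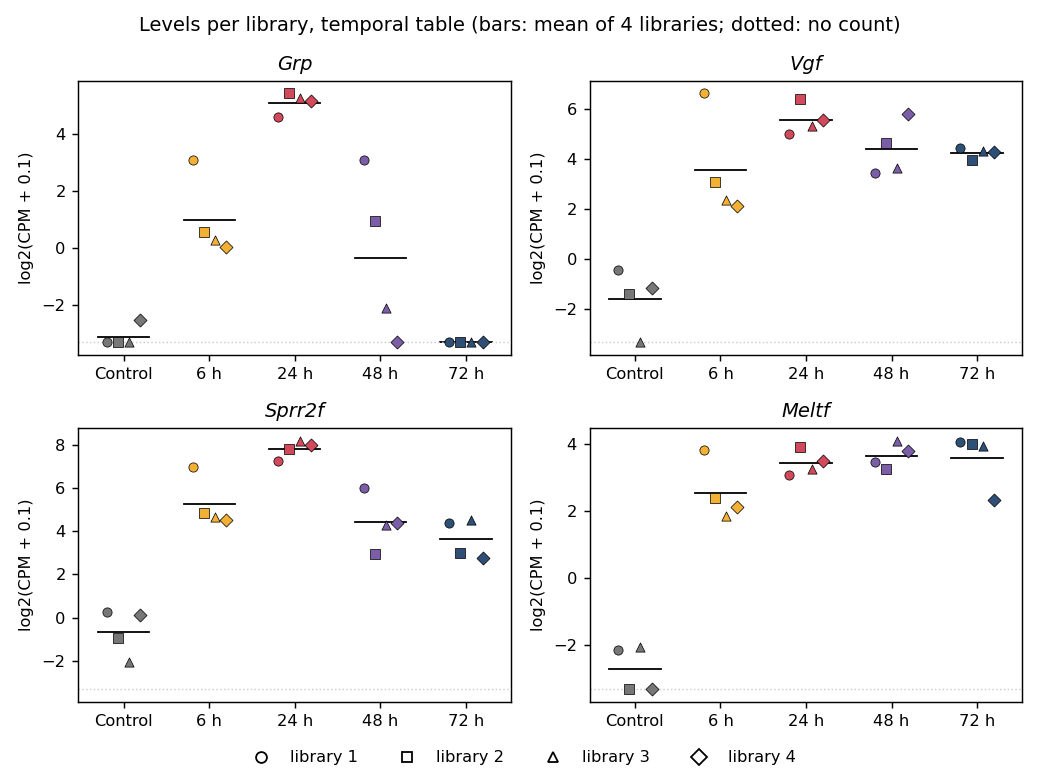
Level of each member in every library of the temporal table, as log2(CPM + 0.1), from Control on the left to 72 h after reperfusion on the right. Bars are means of 4 libraries and the dotted line marks no count. All 24 h libraries of Grp and Sprr2f lie above all other libraries, whereas Meltf keeps its level at 48 h and 72 h.

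No library overlapped Control for 4 of 4 members at 6 h, where 20.2% of all genes tested were higher with no overlap. The same held for 4 of 4 at 24 h (32.6% of genes), 3 of 4 at 48 h (22.7%) and 3 of 4 at 72 h (20.7%), with Grp as the exception at both late times. Between successive times, Grp and Sprr2f were higher at 24 h than at 6 h with no overlap (23.8% of genes) and lower at 48 h than at 24 h with no overlap (15.4%). Since the members were chosen for these rises, nothing is read from the counts. Deposited lines for Control and 6 h had been joined in another block than those for 24, 48 and 72 h, so the block cannot be told apart from the time in any comparison of 24, 48 or 72 h with Control or with 6 h, for the members and for the gene families. The fall of Grp and Sprr2f from 24 h to 48 h lies within a block.

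Library 1 at 6 h was highest of its group for all 4 members, at 99.7 CPM of Vgf against 8.55 CPM in the next library and at 125 CPM of Sprr2f against 28.6 CPM. The 6 neutrophil markers summed to 487 CPM in that library, against 52.7 to 60.7 CPM in the others. Its proximal tubule markers summed to 1662 CPM, against 4434 to 5095 CPM, and its 16 tubular injury genes to 23390 CPM, against 15320 to 16400 CPM. The part of these differences in the members' levels was not tested. Without this library the fitted log2 fold changes at 6 h were 5.28 for Grp, 4.17 for Vgf, 5.24 for Sprr2f and 5.76 for Meltf. At the other end, library 1 at 24 h was lowest of its group for all 4 members.

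Sequence upstream of the start could be shown for 2 of the 4 members, from RefSeq windows of 300 bases on build GRCm38.p6, which is not the GRCm39 build of the count tables. The windows of Sprr2f (chr3:92364937-92365236, plus strand) and Meltf (chr16:31878560-31878859, plus strand) run from 250 bases before to 50 bases after the start. They are shown because they were the only windows found for the members, and capitals mark matches to the motifs searched:
Sprr2f: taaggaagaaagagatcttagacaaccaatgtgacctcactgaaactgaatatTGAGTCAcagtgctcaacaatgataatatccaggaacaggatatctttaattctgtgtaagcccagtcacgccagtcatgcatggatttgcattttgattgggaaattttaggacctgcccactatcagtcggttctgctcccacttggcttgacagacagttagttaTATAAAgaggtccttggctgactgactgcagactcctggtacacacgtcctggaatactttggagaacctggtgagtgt
Meltf: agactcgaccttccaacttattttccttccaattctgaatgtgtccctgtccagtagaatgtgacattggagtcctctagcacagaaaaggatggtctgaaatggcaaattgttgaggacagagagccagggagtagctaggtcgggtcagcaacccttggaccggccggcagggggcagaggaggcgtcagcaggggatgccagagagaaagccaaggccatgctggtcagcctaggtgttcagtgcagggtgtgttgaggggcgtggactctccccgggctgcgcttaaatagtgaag
On both strands, 4 motifs were searched. They were the cAMP response element TGACGTCA, the AP-1 motif TGANTCA, the STAT motif TTCNNNGAA and the TATA box TATAAA. In the Sprr2f window, the AP-1 motif matched as TGAGTCA at positions -197 to -191 relative to the start and the TATA box at -29 to -24, with no overlap between them. The Meltf window had 0 matches. Of 27025 promoter windows of this length, 7.93% held the AP-1 motif, 14.2% the TATA box, 8.47% the STAT motif and 1.88% the cAMP response element. These matches describe letters and are not sites of binding. Aligned with each other, the Sprr2f and Meltf windows were identical at 44.4% of 329 aligned positions.

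Each member was set beside its own gene family, with the members themselves left out of the counts. A gene was called where edgeR's quasi-likelihood test gave it, after Benjamini-Hochberg adjustment, a two-sided p under 0.05. Over all genes, 10.4, 21.8, 26.9 and 26.7% were called higher and 8.51, 20.2, 26.8 and 29.6% lower than Control at 6, 24, 48 and 72 h, and the median log2 fold change of all genes lay between -0.07 and 0.05. The lists had been chosen with earlier results of these data known.

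The bombesin family around Grp was hardly measurable. Its receptor gene Grpr and the related receptors Nmbr and Brs3 were too low to be tested, and Nmb, which encodes the related peptide neuromedin B, was not called at any time (1.05 ± 0.84 at 24 h on the log2 scale, adjusted p = 0.33). The granins, the family nearest to Vgf, gave few higher genes. Of 9 genes tested for granins, prohormone processing and receptors of VGF-derived peptides, 1 was higher and 3 were lower at 6 h, 0 and 4 at 24 h, 0 and 6 at 48 h, and 3 and 2 at 72 h. At 24 h the list's median log2 fold change was -0.60. The granins Scg2, Chgb and Chga were lower at 24 h, with log2 fold changes of -7.61 ± 1.58, -7.0 ± 1.85 and -5.56 ± 1.91 (adjusted p = 0.00056, 0.0045 and 0.024), where Vgf had 32.5 to 84.4 CPM. In Control, Chgb had 25.3, 1.2, 0.415 and 20.2 CPM and Chga 13.3, 0.141, 0.0691 and 12.9 CPM. The size of their falls thus rests on Control libraries 1 and 4. The 24 h levels of Chga, up to 0.307 CPM, overlapped those of Control.

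Chga and its relatives are abundant in chromaffin cells of the adrenal medulla, and their levels varied strongly between libraries of a group. Chga was at 13.3, 0.141, 0.0691 and 12.9 CPM in Control libraries and at most 0.307 CPM in any library at 6, 24 or 48 h. At 72 h it had 10.5, 407, 2.99 and 401 CPM, where Vgf had 21.6, 15.7, 19.96 and 19.5 CPM. Libraries 2 and 4 at 72 h were far above the other 2 for Chga but not for Vgf. In the sham table Chga reached 219 CPM in sham 24 h library 1 and 158 CPM in control library 4, and Vgf was at 0.27 and 0.545 CPM there. Of the 12 neural and neuroendocrine markers, 5 were at 0 in all 48 h libraries, and the list summed to 22.4 to 67.1 CPM in them, against 17.9 to 73.6 CPM in Control. At 72 h the sum was 142 to 668 CPM. The part of these cells in the level of Vgf was not tested.

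**Figure D2:**
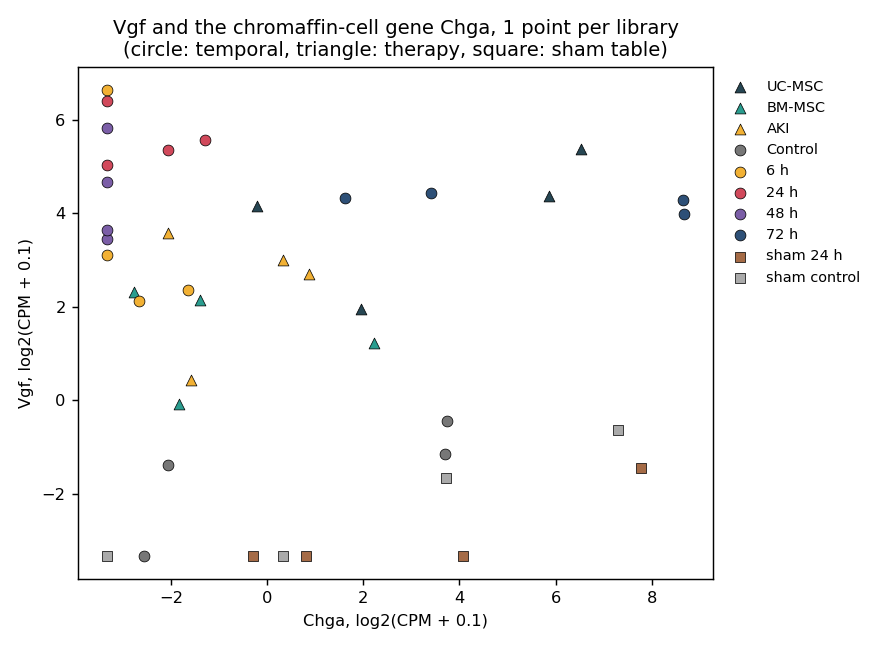
Vgf against the chromaffin-cell gene Chga, both as log2(CPM + 0.1), with 1 point per library of the temporal (circles), therapy (triangles) and sham tables (squares), each scaled within its own table. Libraries at 24 h and 48 h have high Vgf with Chga at most 0.307 CPM, and sham libraries with Chga up to 219 CPM have Vgf of at most 0.545 CPM.

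In the family of Sprr2f most genes tested were higher at 24 h and 48 h, and fewer at 6 h and 72 h. Of 11 SPRR and cornified envelope genes tested, 5 were higher and 0 lower at 6 h, 9 and 1 at 24 h, 8 and 0 at 48 h, and 4 and 0 at 72 h. The list held 25 genes, and the rest were not tested. Krt17 and Sprr2a2, with Control means of 0.0869 and 0.169 CPM, could pass the filter on low counts only through injured libraries. The share called higher thus partly reflects that filter. The list's median log2 fold change was 1.66, 2.82, 2.75 and 0.89 at these times. Sprr2g, with the highest fold change of the list at 24 h, rose by 4.83, 7.13, 4.80 and 4.38 on the log2 scale, with mean levels of 24.0, 118, 23.3 and 17.4 CPM against 0.827 CPM in Control. At 24 h Krt17, a keratin of stressed epithelia, rose by 4.88 ± 1.31 (adjusted p = 0.0042). Sprr1a rose at every time, by 2.16 to 2.82. Tgm1, a transglutaminase that cross-links the envelope, was not called at 24 h (-0.02 ± 0.49, adjusted p = 0.98). The SPRR2 genes are related copies, among which reads could be split, so levels of single SPRR2 genes are uncertain. How alike their transcripts are was not assessed, and promoter windows do not show it. The promoter windows of Sprr2a1 and Sprr2a2 were identical at all 300 positions, whereas Sprr2f matched each at 45.3% of 338 aligned positions.

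Some markers of other barrier epithelia were higher too. Of 8 urothelium markers, 1, 4, 5 and 5 were higher at 6, 24, 48 and 72 h and 0 lower, and Krt5, a basal keratin, rose by 4.39 ± 0.51 at 24 h (adjusted p = 3.2e-07). Krt5 alone had means of 85.6 CPM at 24 h and 4.08 CPM in Control. At 24 h Upk1b was also called higher (1.30 ± 0.39, adjusted p = 0.0099 in edgeR). Genes not called included Upk1a (0.19 ± 0.50, adjusted p = 0.79) and Upk2 (1.24 ± 0.53, adjusted p = 0.065). The urothelium list summed to 148 to 356 CPM at 24 h and 172 to 252 CPM at 72 h, against 58.8 to 65.1 CPM in Control, and none of its genes was at 0 in a group. Over these times Sprr2f had a mean of 230.3 CPM at 24 h and 14.5 CPM at 72 h. Skin keratinocyte markers (6 genes, 3 of them at 0 at 24 h) summed to 38.0 to 107 CPM at 24 h, against 12.0 to 13.5 CPM in Control. Of the 2 that could be tested, Krt14 rose by 5.51 ± 0.66 (adjusted p = 4.2e-07), with means of 48.6 CPM at 24 h and 1.05 CPM in Control, and Krt10 was not called (-0.04 ± 0.48, adjusted p = 0.96). The part of these epithelia in the level of Sprr2f was not tested.

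Of 10 genes of transferrin and iron uptake tested beside Meltf, 2 were higher and 0 lower at 6 h, 3 and 4 at 24 h, 1 and 8 at 48 h, and 1 and 6 at 72 h, with a median log2 fold change of -1.40 at 72 h where Meltf was at 7.38. At 24 h Trf, the transferrin gene itself, rose by 1.72 ± 0.43 and the ferritin gene Ftl1 by 1.53 ± 0.16. Lrp2 and Cubn, the megalin and cubilin receptors of the proximal tubule, fell by 3.91 ± 0.43 and 3.35 ± 0.48. The transferrin receptor gene Tfrc was not called (-0.40 ± 0.24, adjusted p = 0.19).

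**Figure D3:**
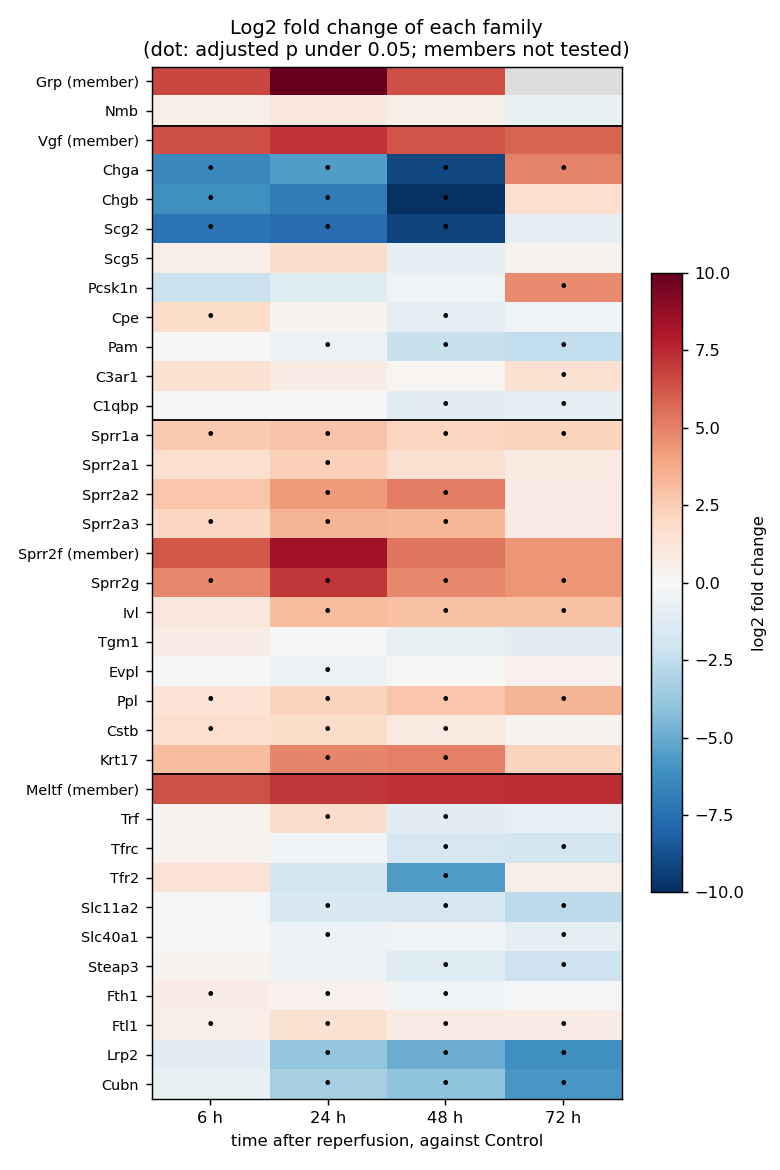
Log2 fold change against Control at 6, 24, 48 and 72 h for the members and the tested genes of their families, in blocks for bombesin peptides, granins, SPRR and cornified envelope, and transferrin and iron uptake. Dots mark an adjusted p under 0.05 and the members were not tested. Besides Sprr2f, 9 of 11 tested SPRR and cornified envelope genes, from a list of 25, were called higher at 24 h and 4 of 11 at 72 h. Besides Vgf, 0 of 9 tested genes of the granin list were called higher at 24 h.

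Across the 20 temporal libraries, the genes most like each member were ranked by Pearson correlation of log2 CPM among 13505 genes whose mean log2 CPM was 0 or more. The libraries share their groups, so these values describe the course and carry no p. Grp was most like Plet1 and Hp (r = 0.93 each), Cd9 (0.91), Ctdnep1 and Plin2 (0.90 each). Over the 16 therapy libraries these correlations were 0.78, 0.72, 0.75, -0.15 and 0.47, so the likeness to Ctdnep1 did not recur there. Sprr2f was most like Lgals3, Sprr2g and Krt8 (r = 0.97 each), Klrg2 (0.96) and Vat1 (0.95), with 0.86 to 0.97 over the therapy libraries. Meltf was most like Capg and Socs3 (0.98 each), Shisa4, S100a6 and Ripk3 (0.97 each), with 0.72 to 0.96. Vgf was like Rpl13 (0.98), Sh3bgrl3, Ybx3 and Serpinb6a (0.97 each), with 0.48 to 0.84. Among the members, Vgf and Meltf were most alike in the temporal libraries (0.92) and Vgf and Sprr2f in the therapy libraries (0.95), while Grp and Meltf were least alike in time (0.40). The levels of Hp, the haptoglobin gene, show a course like that of Grp, with means of 41.0, 401, 1400, 116 and 55.8 CPM from Control to 72 h. S100a6, a calcium-binding protein gene, keeps its level as Meltf does, with 55.2, 584, 1010, 1270 and 1460 CPM.

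Surgery without ischaemia left all 4 members near 0. In sham 24 h kidneys Grp had 0.15, 0, 0 and 0 CPM, against 0, 0.04, 0 and 0 CPM in kidneys without surgery (4 and 1 counts). Vgf had 0.27, 0, 0 and 0 CPM in sham 24 h kidneys, against 0, 0, 0.22 and 0.545 CPM without surgery (7 and 25 counts). Both genes thus had counts in a single sham 24 h library. Sprr2f had 0, 0.32, 0 and 0 CPM in sham 24 h kidneys, against 0, 0.07, 0.11 and 0.26 CPM without surgery (10 and 14 counts). Meltf had 0, 0, 0.94 and 0 CPM in sham 24 h kidneys, against 0, 0.22, 0.16 and 0.64 CPM without surgery (32 counts each). The ranges overlapped for every member. All 4 missed the filter on low counts, so none was tested there, while 20.8% of the 17781 genes tested were called (7.7% higher and 13.1% lower). With no filter, the log2 fold changes in edgeR were 1.68 for Grp, -1.51 for Vgf, -0.47 for Sprr2f and -0.13 for Meltf (adjusted p = 0.72, 0.72, 0.93 and 0.98). The ratios of pooled levels, sham 24 h over no surgery, had 95% counting intervals from 0.428 to 213 for Grp, 0.111 to 0.721 for Vgf, 0.307 to 1.87 for Sprr2f and 0.642 to 1.82 for Meltf. These counts sat in single sham 24 h libraries, a spread that the intervals do not cover. The highest sham level of any member was 0.94 CPM, below every 24 h IRI library of every member, of which the lowest was 8.45 CPM. The sham and temporal tables were scaled separately and their difference was not tested.

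In the therapy table the members were again above Control in injured kidneys with or without cells. UC-MSC and BM-MSC ranges lay above Control for 4 of 4 members (23.4 and 18.5% of genes tested), and AKI ranges for Vgf and Sprr2f (15.8%), which as before is a description. The choice of members used rises over Control, not differences between injured groups, but any injured group may have been seen in it. Tests between injured groups are therefore not fully independent of the choice. With that limit, UC-MSC kidneys had more Vgf and Sprr2f than BM-MSC kidneys, and no other difference of a member between injured groups passed the test.

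Sprr2f had 137, 66.5, 80.4 and 13.5 CPM in UC-MSC kidneys, against 5.56, 2.65, 8.41 and 37.3 CPM in BM-MSC kidneys and 26.3, 35.7, 30.8 and 18.2 CPM in AKI kidneys. The first 3 UC-MSC libraries were above all BM-MSC and AKI libraries, and library 4 was below all AKI libraries. BM-MSC library 4 was above all AKI libraries and the other 3 BM-MSC libraries were below them. Means were 74.2 ± 50.6 CPM in UC-MSC, 13.5 ± 16.03 CPM in BM-MSC and 27.8 ± 7.43 CPM in AKI kidneys (SD, n = 4). UC-MSC exceeded BM-MSC by 2.46 ± 0.71 on the log2 scale (95% interval 0.96 to 3.95, adjusted p = 0.023 in edgeR), higher in 3 of 4 UC-MSC libraries than in any BM-MSC library. UC-MSC against AKI was 1.42 ± 0.68 (-0.02 to 2.87, adjusted p = 0.11), and BM-MSC against AKI was -1.03 ± 0.68 (-2.48 to 0.41, adjusted p = 0.26).

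Vgf had 17.8, 20.4, 41.2 and 3.75 CPM in UC-MSC kidneys, against 2.25, 0.84, 4.34 and 4.89 CPM in BM-MSC kidneys and 11.8, 7.94, 6.40 and 1.24 CPM in AKI kidneys. Again the first 3 UC-MSC libraries were above all BM-MSC and AKI libraries, with library 4 among them. Means were 20.8 ± 15.4 CPM in UC-MSC, 3.08 ± 1.88 CPM in BM-MSC and 6.84 ± 4.37 CPM in AKI kidneys (SD, n = 4). UC-MSC exceeded BM-MSC by 2.75 ± 0.73 on the log2 scale (1.2 to 4.3, adjusted p = 0.016 in edgeR). UC-MSC against AKI was 1.61 ± 0.70 (0.13 to 3.09, unadjusted p = 0.035, adjusted p = 0.077 in edgeR), and BM-MSC against AKI was -1.14 ± 0.71 (-2.64 to 0.36, adjusted p = 0.23).

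Grp had 4.38, 2.12, 1.07 and 0.67 CPM in UC-MSC kidneys, against 0.79, 0.36, 0.34 and 4.01 CPM in BM-MSC kidneys and 0.49, 2.43, 0 and 0.41 CPM in AKI kidneys. These ranges overlapped. The temporal libraries, which were scaled separately, had 0.91 to 8.47 CPM of Grp at 6 h, the time labelled for AKI. At 24 h they had 23.9 to 42.9 CPM, above all these ranges. In edgeR the log2 difference was 0.58 ± 0.92 for UC-MSC against BM-MSC (-1.37 to 2.53, adjusted p = 0.69), 1.31 ± 0.96 for UC-MSC against AKI (-0.71 to 3.34, adjusted p = 0.29) and 0.73 ± 0.95 for BM-MSC against AKI (-1.29 to 2.75, adjusted p = 0.59). Meltf had 6.46, 5.40, 4.64 and 1.06 CPM in UC-MSC kidneys, against 2.25, 1.63, 2.60 and 8.80 CPM in BM-MSC kidneys and 0, 2.56, 3.84 and 2.36 CPM in AKI kidneys. The highest Meltf level was in a BM-MSC library and the ranges overlapped. In edgeR the differences were 0.21 ± 0.78 (-1.44 to 1.85, adjusted p = 0.88), 1.01 ± 0.79 (-0.68 to 2.69, adjusted p = 0.33) and 0.80 ± 0.79 (-0.87 to 2.48, adjusted p = 0.46) in the same order of comparisons. All 6 intervals of both genes include 0.

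In counts, 2 of 4 members were called between UC-MSC and BM-MSC, where 20.5% of all genes tested were called (10.0% higher and 10.4% lower). Between UC-MSC and AKI 0 of 4 members were called, where 40.5% of genes were, with 1 of 4 at an unadjusted p under 0.05 and Vgf called by DESeq2 (adjusted p = 0.047). Between BM-MSC and AKI 0 of 4 were called, where 33.4% of genes were (16.3% higher and 17.1% lower), and 0 of 4 had an unadjusted p under 0.05 or were called by DESeq2. AKI lines had been joined in another block than the other therapy groups, so in comparisons with AKI the block cannot be told apart from the treatment. UC-MSC and BM-MSC shared a block.

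**Figure D4:**
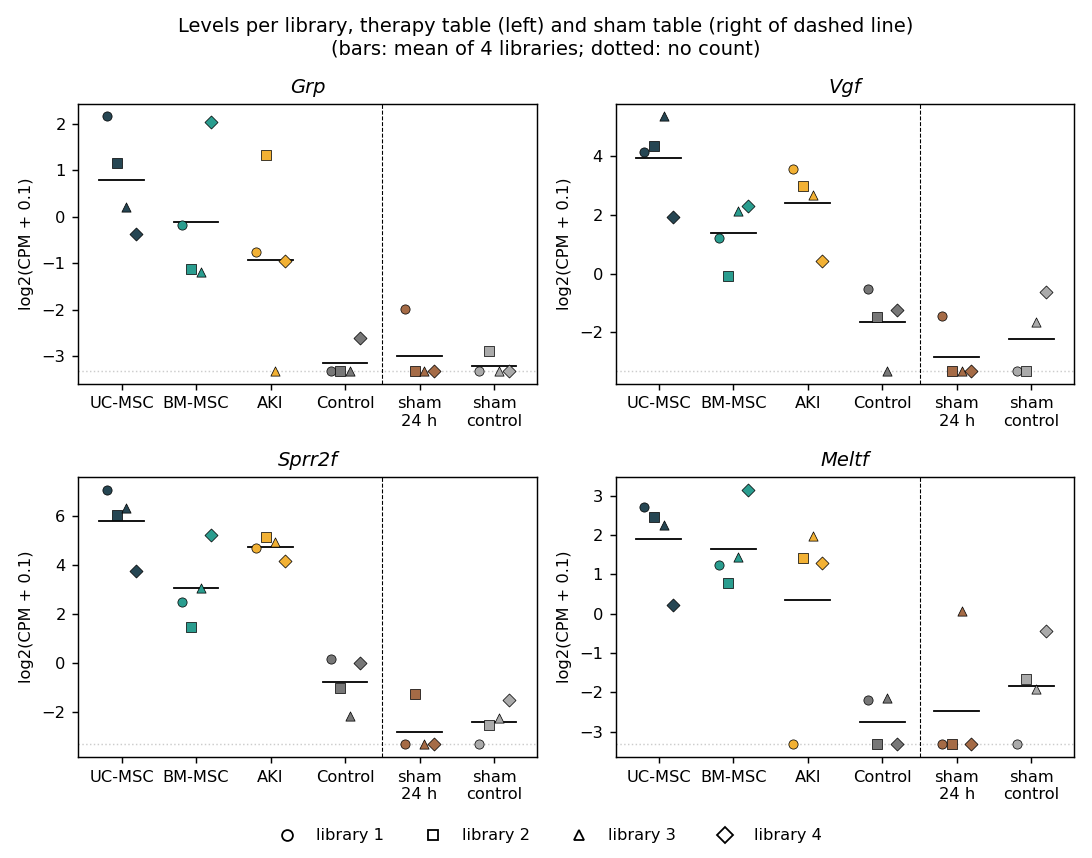
Level of each member in every library of the therapy table (UC-MSC, BM-MSC, AKI and Control) and, right of the dashed line, of the sham table (sham 24 h and no surgery), as log2(CPM + 0.1), with bars at means of 4 libraries. In 3 of 4 UC-MSC libraries Sprr2f and Vgf lie above all BM-MSC libraries, and all sham libraries are at or below 0.94 CPM.

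Single libraries changed several of these results. UC-MSC library 4 was lowest of its group for all 4 members and BM-MSC library 4 highest of its group for all 4. The neutrophil markers (6 genes, none at 0 in these groups) summed to 559, 347, 424 and 54.1 CPM in UC-MSC libraries 1 to 4, against 19.99, 13.2, 26.2 and 347 CPM in BM-MSC libraries and 5.44 to 32.4 CPM in AKI libraries. Proximal tubule markers summed to 3012, 2274, 1410 and 5490 CPM in UC-MSC libraries, against 6805, 7621, 6024 and 3171 CPM in BM-MSC libraries. So the libraries in which all members were high had more neutrophil and less tubule signal than others of their group, and the part of these cell types in the result was not tested. Without BM-MSC library 4, Sprr2f was lower in BM-MSC than in AKI kidneys by -2.31 on the log2 scale (adjusted p = 0.013 in edgeR), and Grp and Meltf changed sign, to -0.73 and -0.01. Without UC-MSC library 4, UC-MSC exceeded AKI by 1.77 for Sprr2f and 1.96 for Vgf (adjusted p = 0.034 and 0.025 in edgeR). Without AKI library 1 this Vgf difference was 1.99 (adjusted p = 0.035). The Sprr2f call between UC-MSC and BM-MSC was lost without any of BM-MSC libraries 1, 2 and 3 (adjusted p = 0.072, 0.058 and 0.068) or UC-MSC libraries 1 and 3 (0.054 and 0.051), in edgeR, and with only these 2 groups in the fit (0.059). The Vgf call was lost without BM-MSC library 1 (0.052) or UC-MSC library 3 (0.067).

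Some relatives of the members also differed between the MSC groups. Sprr2g was higher in UC-MSC than in BM-MSC kidneys by 2.50 ± 0.48 (adjusted p = 0.003) and lower in BM-MSC than in AKI kidneys by -2.38 ± 0.48 (adjusted p = 0.0016) on the log2 scale in edgeR. Of 12 SPRR and cornified envelope genes tested, 4 were higher and 1 lower in UC-MSC than in BM-MSC kidneys, with a median log2 difference of 1.59, against 0.01 over all genes. Of 9 genes of the granin list, 4 were higher and 0 lower, led by Scg2 (5.84 ± 1.5), Chgb (5.71 ± 1.46) and Chga (4.92 ± 1.59). Chga had 0.766, 57.9, 91.7 and 3.75 CPM in UC-MSC libraries, against 4.60, 0.181, 0.282 and 0.0466 CPM in BM-MSC libraries. In UC-MSC library 1 Vgf was at 17.8 CPM with Chga at 0.766 CPM. The 12 neural and neuroendocrine markers summed to 38.8 to 334 CPM in UC-MSC, against 16.4 to 30.7 CPM in BM-MSC and 12.1 to 14.5 CPM in AKI kidneys, and their part in the Vgf difference was not tested. Nmb, the relative of Grp, was higher in UC-MSC than in BM-MSC kidneys by 1.92 ± 0.41 (adjusted p = 0.0052). Of 11 genes of transferrin and iron uptake, 1 was higher and 3 were lower, with a median log2 difference of -0.44. The higher one was Trf (1.13 ± 0.17, adjusted p = 0.00075 in edgeR), and Lrp2 and Cubn were among the lower ones (-1.62 ± 0.37 and -1.57 ± 0.34, adjusted p = 0.0067 and 0.0052).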

How the data were processed

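Deposited values were whole-number read counts per gene, in 3 tables. Per the submitters' processing notes, HTSeq, DESeq2 and the build GRCm39 (mm39) were used, with no role stated, and the aligner and use of strand are not given in the sources used here. The 40 samples filled 44 library columns, with 0 unused, since Control libraries stood in both the temporal and the therapy table. Lines were summed by gene name and divided by the repeats that a join by name had made. Left out were 85 names, mostly with Control counts that disagreed between these tables, and no member was among them. The sham table's control columns cannot be tied to single samples, only to their group, so their numbers here are names and pair nothing.

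From the counts, each table was fitted with all its groups by edgeR 4.0.16 (R 4.3.3; TMM, filterByExpr, glmQLFit, glmQLFTest), two-sided, with Benjamini-Hochberg adjustment over 16653, 16623 and 17781 genes (temporal, therapy, sham). Log2 CPM used a prior count of 2. AKI and 6 h labels name the same libraries, but their counts correlated at only 0.874 to 0.942, so they were treated as different libraries. Earlier results of these data were known when the members, the 15 gene lists, the tests and the naming rule were chosen. By that rule, the text names the members, relatives in their families, per list up to 4 called genes of largest change and 2 not called, and 5 most-alike genes per member, of which 1 is not reported here. Alternatives were DESeq2 1.42.0, its size factors in edgeR, no filter, compared groups only, a replicate block, disagreeing names kept and each library left out. Leaving out library 4 of both MSC groups was added after seeing the data, in which these libraries were the extremes of their groups for the members. Reads of the injected human cells that align to mouse genes were not assessed.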

Additional observations from a re-analysis of the deposited data

Results flagged for a closer look

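Dixon's test at its 95% critical value for 4 samples marked a single library in 14 of 39 groups of member values. Chance marks about 1 in 20 groups only for normal, independent values, which these are not. A group with counts in 1 library alone is always marked, so the number of marks is not set against that rate. At 6 h, library 1 was far above the others for all 4 members, with 8.47 CPM of Grp, 99.7 CPM of Vgf, 125 CPM of Sprr2f and 14.1 CPM of Meltf. BM-MSC library 4 was far above its group for Grp (4.01 CPM), Sprr2f (37.3 CPM) and Meltf (8.80 CPM). Library 4 at 72 h was far below its group for Meltf (4.93 CPM). The remaining ones were groups with counts in 1 library or in few. Grp had 0.0698 CPM in Control library 4 of the temporal table, 0.0362 CPM in control library 2 of the sham table and 0.152 CPM in sham 24 h library 1, where Vgf had 0.266 CPM. Sprr2f had 0.315 CPM in sham 24 h library 2, and Meltf had 0.941 CPM in sham 24 h library 3. The other 3 libraries of these 6 groups held no count of the gene.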

How the results depend on the processing

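Replicate numbers did not pair the samples: correlations of same-numbered deviations ran from -0.50 to 0.22, and in 0 of 16 group pairs was every one over 0.1. With the replicate number as a block, Vgf in UC-MSC against BM-MSC was 2.47 (adjusted p = 0.054) and Grp at 24 h 10.93. Grp at 24 h was 10.73 by DESeq2 and 10.97 with no prior count. With only the compared groups fitted, Sprr2f in UC-MSC against BM-MSC was 2.46 (adjusted p = 0.059), and 3638 in place of 5552 genes were called for BM-MSC against AKI and 3535 in place of 6729 for UC-MSC against AKI. DESeq2 gave 1.61 for Vgf in UC-MSC against AKI (adjusted p = 0.047). The cause of these shifts was not tested.

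Leaving out each library in turn, log2 fold changes against Control ran from 4.17 to 7.04 (Vgf, 6 h), 9.93 to 11.46 (Grp, 24 h), 4.41 to 7.51 (Grp, BM-MSC) and 5.80 to 8.09 (Grp, UC-MSC). For BM-MSC against AKI they ran from -0.73 to 2.18 (Grp), -2.31 to -0.69 (Sprr2f) and -0.01 to 1.21 (Meltf), and for UC-MSC against AKI from 1.05 to 1.99 (Vgf) and 0.96 to 1.77 (Sprr2f). For UC-MSC against BM-MSC they ran from -0.09 to 2.02 (Grp, -0.09 without UC-MSC library 1), 2.18 to 3.09 (Vgf), 1.99 to 3.71 (Sprr2f) and -0.05 to 1.00 (Meltf, -0.05 without BM-MSC library 2 and -0.04 without UC-MSC library 1), and 1947 to 4212 in place of 3402 genes were called. With both library 4s left out, a choice made after they were seen to be extreme for the members and so no support for any call, BM-MSC against AKI was -0.73 for Grp, -2.31 for Sprr2f and -0.02 for Meltf, and UC-MSC against AKI was 1.96 for Vgf and 1.77 for Sprr2f. DESeq2 size factors shifted the median of all genes by 0.103 at 48 h and 0.131 at 72 h, with no member changing direction or call. Counts of 1 to 39 in Control limit every fold change against it.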

Other observations

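Other gene groups described the injury in which the members were high. All 16 tubular injury genes, Sprr2g of the SPRR list among them, rose at 6 h and 15 of 16 at 24 h, among them the transcription factor Sox9 (4.88 ± 0.30 on the log2 scale) and the keratin Krt20 (4.50 ± 0.60). Of 14 ATF3, AP-1 and CREB family factors, 10, 13, 12 and 11 rose at 6, 24, 48 and 72 h and 0 fell, with Fosl1 up by 6.17 ± 1.63 and Atf3 by 3.54 ± 0.37 at 24 h. In UC-MSC against BM-MSC kidneys 8 of 16 injury genes and 8 of 14 factors were higher and 0 lower, with Krt20 at 4.02 ± 0.50 and Fosl1 at 3.60 ± 0.52. In BM-MSC against AKI kidneys 0 factors were higher and 9 lower, and 1 injury gene was higher and 6 lower. Over all genes, 16.3% were called higher and 17.1% lower there. The factors summed to 3164 CPM in AKI library 1, against 610 to 858 CPM in the other AKI libraries and 359 to 621 CPM in BM-MSC libraries. Injury genes summed to 6487 CPM in that AKI library, against 19560 to 32380 CPM in the others. The AKI block cannot be told apart from the treatment in this comparison. After sham surgery, where the members stayed near 0, 4 of 14 injury genes and 5 of 13 factors rose and 0 fell, among them Fos (1.73 ± 0.37) and Cdkn1a (1.23 ± 0.27), by edgeR at an adjusted p under 0.05.

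At 24 h, 7 of 7 proximal tubule markers fell, 5 of 8 markers of the thick ascending limb and distal nephron fell and 1 rose, and 3 of 4 neutrophil markers rose. Of macrophage and lymphocyte markers 1 rose and 1 fell of 7, of fibroblast markers 0 rose and 2 fell of 6, and of podocyte and endothelium markers 0 rose and 1 fell of 3. Over all genes, 21.8% were called higher and 20.2% lower at 24 h, so nothing is read from these small counts. Only tested markers are counted, which were 3 of 6 for podocyte and endothelium, 4 of 7 for neutrophils and 2 of 6 for skin keratinocytes. Of skin keratinocyte markers 1 of 2 rose. Neural and neuroendocrine markers split into 1 higher and 5 lower of 11. Their sum at 24 h, 30.4 to 43.2 CPM, lay within the Control range of 17.9 to 73.6 CPM.

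The related copies Sprr2a1 and Sprr2a2 had log2 fold changes of opposite sign in AKI against Control, at -3.70 and 4.32 (adjusted p = 0.0076 and 0.052 in edgeR). Levels were low, and the Sprr2a2 value rested almost wholly on a single AKI library. Sprr2a2 had means of 3.27 ± 6.49 CPM (SD, n = 4) in AKI and 0.156 CPM in Control kidneys. For Sprr2a1 the means were 0.104 and 1.36 CPM. AKI lines had been joined in another block than Control, which cannot be told apart from the injury here.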
